A study of Drosophila melanogaster with 12 samples.

Results

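Removal of ribosomal RNA is meant to leave the messenger RNAs of a sample as they were. Here the messenger RNAs that shifted during one such removal are described by the larval tissue that makes them and by the protein they encode. The measurements are 6 poly(A)-primed libraries of the 12 libraries in the series: 3 from input RNA and 3 from RNA depleted with the Ribo-Pop probes, all 6 taken because their labels give this priming. Each library came from wandering third-instar larvae of the wild-type Oregon-R strain of Drosophila melanogaster, in pools of 40 whole animals, and no animal carried a transgene or received a treatment. In the depleted group, biotinylated DNA probes against the 18S and 28S rRNAs were hybridized to the RNA and pulled out on streptavidin beads, and the input group is the larval RNA without that step. Libraries with the same replicate number are taken as one RNA pool. Synthetic SIRV spike-in RNAs were present in both.

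A wandering larva has stopped feeding and is about to pupariate. Its epidermis secretes cuticle, a layer of chitin and chitin-binding proteins, its salivary glands fill with the glue that fixes the pupal case to a surface, and its fat body loads the blood with storage proteins. Mucins, which are secreted proteins with long stretches rich in threonine, serine and proline, coat gut and gland surfaces. Body wall muscle, the central nervous system and the imaginal discs, the epithelial sacs that form the adult appendages, make up much of the rest of the animal. In a whole-larva pool, fewer cells of a type and less RNA per cell cannot be told apart as sources of a low level, and input and depleted libraries were built from fractions of the same larval samples.

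Poly(A)-primed libraries start from the 3′ end of polyadenylated RNA, so that a read count follows the number of transcripts and not their length. The counts analysed, without spike-ins, rRNA genes and the summary lines, ranged from 3315070 to 5700887 in the input and from 2510491 to 4152451 in the depleted libraries. Genes with rRNA in their symbol, which were left out of every fit, held from 288376 to 698853 counts in the input libraries and from 358877 to 1172212 in the depleted ones. They were lower after depletion in RNA pool 1 and higher in RNA pools 2 and 3, and the part of this in the results below was not tested. The actin gene Act5C, a general reference transcript, had 2352, 2308 and 2313 CPM (counts scaled to library size) in the input and 2170, 2014 and 1773 CPM in the depleted libraries of pools 1, 2 and 3. Its change did not pass the test (log2 fold change -0.23 ± 0.10 SE, adjusted p = 0.106).

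Depletion was compared with input by edgeR's quasi-likelihood test with the RNA pool as a block, and a gene was called at a Benjamini-Hochberg adjusted p under 0.01. Of 9514 genes tested, 764 were lower after depletion, which is 8.03% of them, and 392 were higher, which is 4.12%. The median log2 fold change of all tested genes was 0.01. Among the genes called lower, the median change was -0.74 on the log2 scale and 199 genes changed by a factor of 2 or more. Among those called higher, the median change was 0.63 and 41 genes reached that size. Input and depleted libraries did not overlap for 657 of the genes called lower and for 302 of those called higher, against 2469 of the 9514 tested, 1510 of which were not called. These counts depend on the pairing of libraries by number. Without the pool block, 145 genes were lower and 12 were higher at the same threshold, and 143 and 11 of them were also called with the block. Leaving out pool 2 gave 353 lower and 100 higher, and leaving out pool 3 gave 414 and 142. With spike-in scaling in place of TMM, which moved the median of all genes to -0.04, 517 genes were lower and 48 higher.

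The 15 largest decreases among genes whose group mean reached 10 CPM in the input or the depleted libraries reached from -4.57 to -2.12 on the log2 scale. CG7203, at chr2L:7752170-7753186 (coordinates here are of the BDGP6.54 assembly), had 14.8, 14.0 and 9.35 CPM in the input and 0.927, 0.463 and 0 CPM in the depleted libraries. Every depleted library lay far below every input library, and the fitted log2 fold change was -4.57 ± 0.41 SE. These depleted values lay near the floor, so the size of the change is less certain than its SE. Alas encodes 5-aminolevulinate synthase, the enzyme of the first step of heme synthesis. It fell from 32.3, 43.0 and 29.4 CPM to 4.41, 3.70 and 1.52 CPM (log2 fold change -3.38 ± 0.23 SE, adjusted p = 3.12e-17). The largest loss of an abundant transcript was that of CG3868 at chr3L:14400769-14402725, a gene that overlaps another on the same strand. Its input libraries held 1259, 1391 and 955 CPM and its depleted libraries 151, 164 and 135 CPM, with tight agreement among the depleted libraries (log2 fold change -2.99 ± 0.11 SE, adjusted p = 6.13e-28).

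IM4, an immune-induced peptide that the fat body secretes into the blood, differed greatly among pools and fell in each of them. It held 72.05, 134 and 22.6 CPM in the input and 8.35, 13.4 and 1.14 CPM in the depleted libraries. The log2 fold change was -3.31 ± 0.17 SE with an adjusted p of 3.91e-22, and without the pool block the adjusted p was 0.171. CG7465 had the same kind of spread, with 51.3, 121 and 32.2 CPM in the input and 9.97, 20.6 and 10.6 CPM after depletion, and its adjusted p of 9.87e-17 became 0.13 without the block. Npc1a, an intracellular sterol transporter, fell from 114, 97.9 and 124 CPM to 23.6, 22.0 and 17.1 CPM (log2 fold change -2.38 ± 0.13 SE). Spn100A, a serpin, fell from 34.5, 53.5 and 37.7 CPM to 7.65, 9.02 and 10.2 CPM. The mitochondrial arginine tRNA mt:tRNA:Arg-TCG fell from a mean of 61.9 ± 15.8 CPM to 11.9 ± 1.26 CPM (SD, n = 3). The remaining members of the 15 were Muc96D, obst-A and Sgs1, described below with their families, and hui, CG32603, CG11470 and CG7715. Of the 15 genes, 13 also passed the threshold without the pool block, IM4 and CG7465 being the exceptions.

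**Figure D1:**
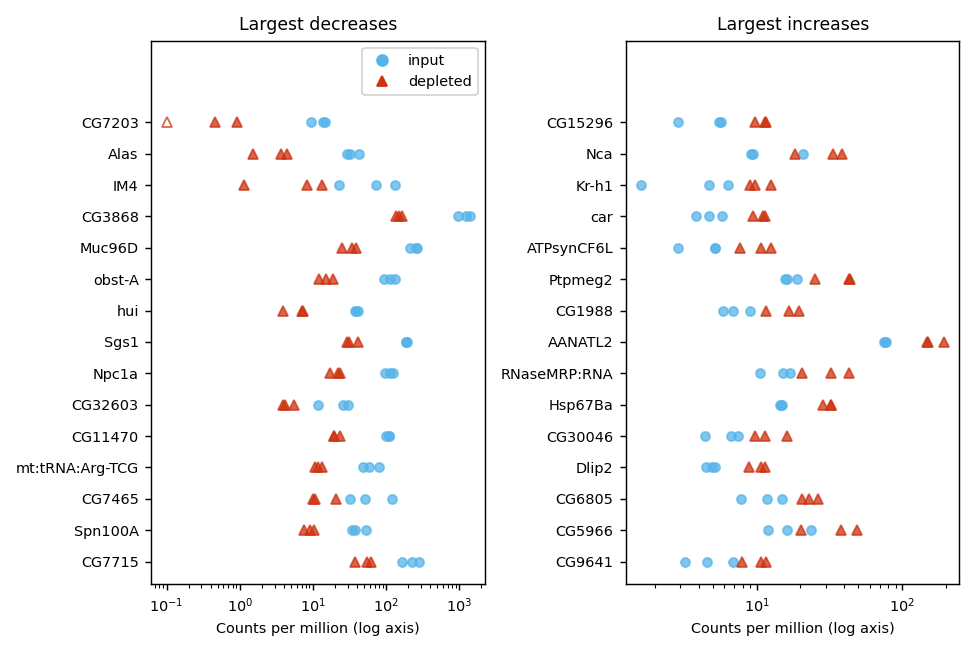
CPM in each library (log axis) of the 15 genes with the largest decreases and the 15 with the largest increases among called genes with at least 10 CPM, with circles for input and triangles for depleted libraries; the open triangle marks a library at 0 CPM, drawn at the left edge. Input and depleted libraries of CG3868 lie apart at 955 to 1391 and 135 to 164 CPM, while the increases, such as that of AANATL2 from about 76.1 to 164 CPM in the mean, are smaller.

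Increases were smaller. The 15 largest among genes whose group mean reached 10 CPM lay between log2 fold changes of 1.04 and 1.26, and most of these genes were expressed at low levels. AANATL2, of the arylalkylamine N-acetyltransferase family, was the most abundant of them. It rose from 75.8, 75.3 and 77.1 CPM in the input to 194, 151 and 148 CPM in the depleted libraries, with input libraries almost equal (log2 fold change 1.10 ± 0.11 SE, adjusted p = 1.71e-11). Hsp67Ba, a small heat shock protein gene of the 67B cluster, rose from 14.6, 14.7 and 14.8 CPM to 28.8, 32.6 and 32.3 CPM (adjusted p = 2.25e-06). Nca encodes neurocalcin, a neuronal calcium sensor, and rose from 9.13, 9.37 and 21.0 CPM to 18.3, 33.3 and 38.7 CPM. Its groups overlapped, and the adjusted p of 1.14e-06 became 0.107 without the pool block.

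Kr-h1, a transcription factor of the juvenile hormone response, rose from a mean of 4.20 ± 2.39 CPM to 10.4 ± 1.85 CPM (SD, n = 3). The RNA of RNase MRP, an enzyme that cuts the rRNA precursor, rose from 14.2 ± 3.22 to 32.0 ± 11.5 CPM. Ptpmeg2, a protein tyrosine phosphatase, rose from 16.9 ± 1.84 to 37.4 ± 10.6 CPM, and car, a lysosomal trafficking protein, rose from 4.77 ± 0.993 to 10.7 ± 1.02 CPM. Also among the 15 were ATPsynCF6L, a relative of an ATP synthase coupling factor, and CG15296, CG1988, CG30046, Dlip2, CG6805, CG9641 and CG5966. Only 3 of the 15, namely AANATL2, Hsp67Ba and Ptpmeg2, passed the threshold without the pool block.

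Most shifted genes belonged to none of the lists. The 31 lists used here cover tissues, protein families and housekeeping complexes. They hold 110 of the 764 genes called lower (14.4%) and 40 of the 392 called higher (10.2%), against 611 of the 9514 tested (6.42%). The lists were chosen with earlier results of these data known, so an excess over 6.42% cannot be read as enrichment. Call rates also rose with expression level, with 20.9% lower and 9.37% higher in the top of 4 equal groups of genes. Among lists with at least 5 tested members, in the order of their medians, mucins and salivary glue lay at the low end, followed by ecdysone-inducible disc genes, heme and iron genes, imaginal disc growth factors, cuticle proteins and digestive enzymes. The place of the ecdysone-inducible list rests on 5 tested genes with 1 call. Its pool medians were -0.58, -0.15 and -0.08, and its mean share of counts was 0.0431% before and 0.0443% after depletion. Giant cytoskeletal linkers and small heat shock proteins lay at the high end.

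**Figure D2:**
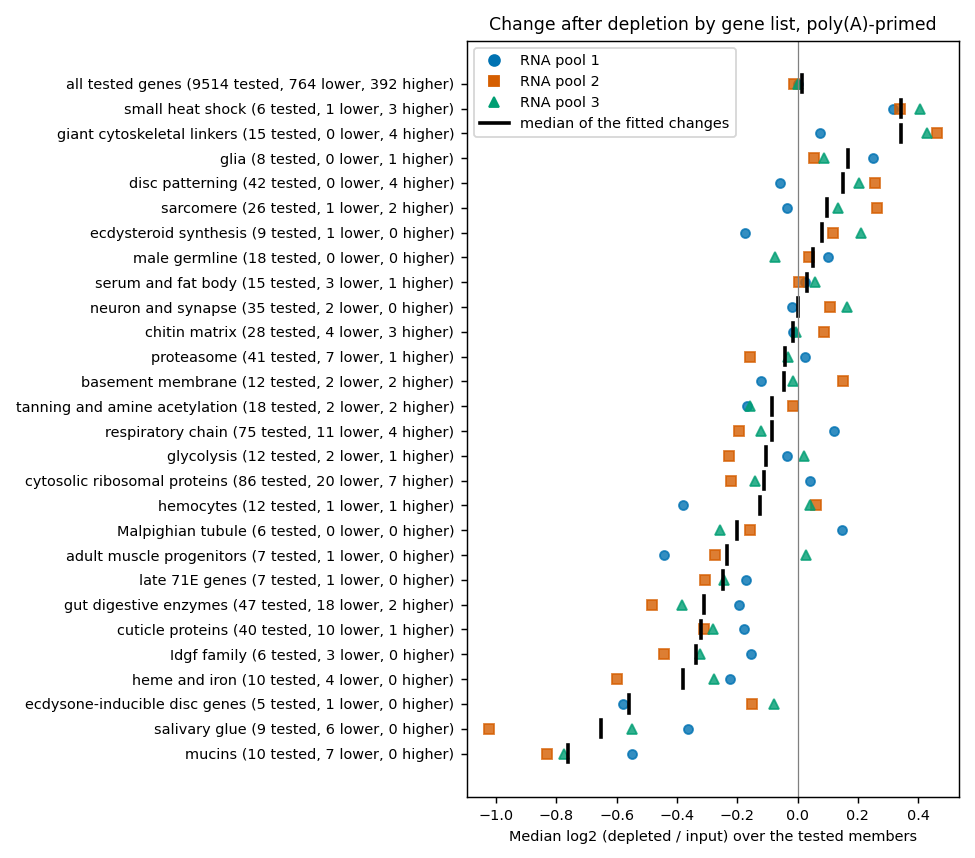
Median log2 ratio of depleted to input over the tested members of each list with at least 5 tested members, with a marker for each RNA pool and a bar for the median of the fitted changes; the labels give the numbers tested, called lower and called higher. Mucins (median -0.76) and salivary glue (-0.65) lie lowest in the fit, and the fitted median of all tested genes is 0.01.

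Cuticle protein transcripts moved mostly down. Of 127 listed genes 40 were tested. The others had at most 21 counts in any library, and 27 of them had no count at all. Of the 40, 10 were lower and 1 was higher, which is 25.0% lower against 8.03% of all tested genes, and the median was -0.32. In the top of 4 equal groups of all tested genes by expression level, 20.9% were lower. Lcp2, a structural protein of the larval cuticle, fell from 8614, 8756 and 6609 CPM to 2306, 2136 and 1824 CPM (log2 fold change -1.93 ± 0.11 SE, adjusted p = 6.22e-21). Its neighbour Lcp1, which resembles it closely enough that reads matching both may be lost, fell from 8458, 8541 and 6817 CPM to 4525, 3764 and 3472 CPM. Lcp3, the most abundant cuticle transcript, fell less, from 40340, 34870 and 33540 CPM to 27580, 22980 and 18490 CPM (log2 fold change -0.67 ± 0.10 SE, adjusted p = 2.20e-06, and 0.0514 without the pool block). The next gene of the cluster, Lcp4, had 18250, 17960 and 13800 CPM in the input and 17860, 14600 and 11830 CPM after depletion, with overlapping groups and an adjusted p of 0.219. Members of one gene cluster thus ranged from -1.93 to -0.18 on the log2 scale.

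Other cuticle proteins called lower were Cpr64Aa, which fell from 5.43, 7.27 and 6.45 CPM to 0.464, 1.16 and 1.14 CPM, and Cpr100A, Cpr12A, Cpr49Ac, Cpr78E, Lcp65Ac and Pcp. Cpr47Ec was the member called higher, at 0.78 on the log2 scale, with an adjusted p of 0.576 without the block.

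The genes of the chitin matrix, which synthesize, bind or cut chitin, moved in both directions, with a median of -0.01. Of 28 tested, 4 were lower (14.3%) and 3 higher (10.7%), against 8.03% and 4.12% of all tested genes. Within the list, obst-A and Peritrophin-A, genes that lie close together on the X chromosome for proteins with chitin-binding domains, fell most. For obst-A, which organizes chitin in the cuticle, the libraries held 93.3, 133 and 112 CPM before and 12.3, 15.3 and 18.6 CPM after depletion (log2 fold change -2.90 ± 0.14 SE, adjusted p = 2.94e-23). For Peritrophin-A they held 125, 138 and 82.9 CPM before and 39.6, 33.8 and 24.7 CPM after. The chitinase Cht10, the most abundant gene of this list and followed by Peritrophin-A, varied too much for a call. It had 241, 79.0 and 252 CPM in the input and 208, 311 and 370 CPM in the depleted libraries. Tanning and amine acetylation genes also divided, with yellow-e and yellow-d2 lower and AANATL2 and Ddc, the dopa decarboxylase of cuticle hardening, higher among 18 tested. None of the 24 Osiris genes, which serve cuticle-forming epithelia, passed the filter, and none had more than 7 counts in a library.

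Mucin transcripts had the lowest median of the lists. Of 19 listed genes 10 were tested and 7 were lower (70%, against 8.03% of all tested genes), with a median of -0.76. In the top of 4 equal groups of all tested genes by expression level, 20.9% were lower. None of the mucins was higher by edgeR, at an unadjusted p under 0.05 included, or by DESeq2 with the block. The largest decrease was that of Muc96D at chr3R:25397788-25400645, from 258, 265 and 212 CPM to 25.3, 34.5 and 39.5 CPM (log2 fold change -2.92 ± 0.14 SE, adjusted p = 8.99e-16). This gene overlaps another on the same strand. Muc26B fell from 277, 299 and 286 CPM to 96.7, 73.1 and 78.6 CPM (log2 fold change -1.80 ± 0.11 SE, adjusted p = 1.06e-18). Mur29B, the most abundant mucin-related transcript, fell from 384, 408 and 619 CPM to 253, 206 and 350 CPM in pools 1, 2 and 3, so that its groups lay apart by a small margin. The others called lower, Muc18B, Mur89F, Muc68Ca and Muc55B, had log2 fold changes from -0.96 to -0.69. Muc11A, Mur18B and Muc68E were tested and not called, at -0.14, 0.04 and 0.56. Of the 7 calls, those of Muc96D and Muc26B also passed without the pool block. The median was negative in each pool, at -0.55, -0.83 and -0.78.

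Salivary glue genes came next. Of 9 tested members 6 were lower, 66.7% against 8.03% of all tested genes. The share lower in the top of 4 equal groups of genes by expression level was 20.9%. None of the glue genes was higher, also by DESeq2 and at an unadjusted edgeR p under 0.05. The median was -0.65, and the size of the change differed widely between glue proteins of the same gland. Sgs1 fell from 191, 189 and 190 CPM, nearly the same in every input library, to 29.2, 31.7 and 41.0 CPM (log2 fold change -2.51 ± 0.12 SE, adjusted p = 2.94e-23). Sgs4 fell from 1902, 1750 and 1997 CPM to 480, 560 and 903 CPM (log2 fold change -1.59 ± 0.13 SE, adjusted p = 2.94e-09). Sgs3, singled out after its values were seen, held 13580, 17460 and 10100 CPM before and 2221, 2262 and 3091 CPM after depletion. Its libraries do not overlap, but its log2 fold change of -2.43 had an adjusted p of 0.0402 with the pool block and was not called. Without the block its adjusted p was 1.80e-05.

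The glue genes Sgs5, Sgs7 and Sgs8 changed less. Sgs8 fell from 13750, 13920 and 18650 CPM to 11080, 8502 and 12740 CPM (log2 fold change -0.52 ± 0.10 SE, adjusted p = 0.000156), and Sgs5 by 0.46 on the log2 scale. Sgs7, the most abundant transcript of the list, had 57400, 45810 and 75660 CPM in the input and 55580, 41270 and 76200 CPM in the depleted libraries, nearly equal within each pool, with an adjusted p of 0.728. Sgs7 and Sgs8 are neighbours on chromosome 3L. The pre-glue gene ng1 fell from 13.8, 27.9 and 18.4 CPM to 10.4, 11.6 and 7.21 CPM, ng3 fell by 0.65 on the log2 scale, and ng2 was not called. Without the pool block 3 glue genes were called, namely Sgs1, Sgs4 and Sgs3, and without pool 2 there were 3 calls. Of the Eig71E genes, listed here as late 71E genes of the salivary gland, 1 of 7 tested was lower, Eig71Ee at -0.47.

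Digestive enzymes of the gut supplied the largest number of decreases of any tissue list. Of 47 tested 18 were lower (38.3%) and 2 higher (4.3%), with a median of -0.31, against 8.03% and 4.12% of all tested genes. In the top of 4 equal groups of all tested genes by expression level, 20.9% were lower and 9.37% higher. The Jonah genes are serine proteases of the larval midgut. Jonah transcript Jon99Cii fell from 3672, 4471 and 3091 CPM to 968, 1200 and 682 CPM (log2 fold change -2.0 ± 0.11 SE, adjusted p = 2.80e-21). Jon99Ciii, a neighbour so similar that reads matching both may be lost from these unique counts, fell from 3220, 3993 and 2785 CPM to 1662, 1614 and 1266 CPM. Jon25Bii fell from 209, 250 and 165 CPM to 89.5, 86.8 and 49.7 CPM (adjusted p = 1.36e-15). Among trypsins, deltaTry fell from 6442, 9186 and 4981 CPM to 3042, 3602 and 2165 CPM, and alphaTry and gammaTry were also lower.

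The 2 digestive transcripts with the highest mean over all 6 libraries parted. Jon66Ci had 6224, 9234 and 4493 CPM in the input and 4558, 5159 and 2727 CPM after depletion, lower in every pool but with overlapping groups (log2 fold change -0.67 ± 0.10 SE, adjusted p = 2.21e-06, and 0.238 without the pool block). Jon65Aiv had 7435, 8750 and 5066 CPM before and 6956, 7274 and 4472 CPM after, and was not called (adjusted p = 0.223). The lysozymes LysB, LysD and LysE, near copies of each other, were lower by 0.50 to 0.75 on the log2 scale. Jon99Ci and etaTry were the members called higher, at 0.54 and 0.59. Input levels also differed among pools, highest in pool 2 and lowest in pool 3 for each Jonah gene with values given here. Without the pool block 5 digestive enzymes were lower, 4 of them among the 18 and the other Jon99Fi (adjusted p = 0.0624 with the block). Without pool 3 there were 10.

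**Figure D3:**
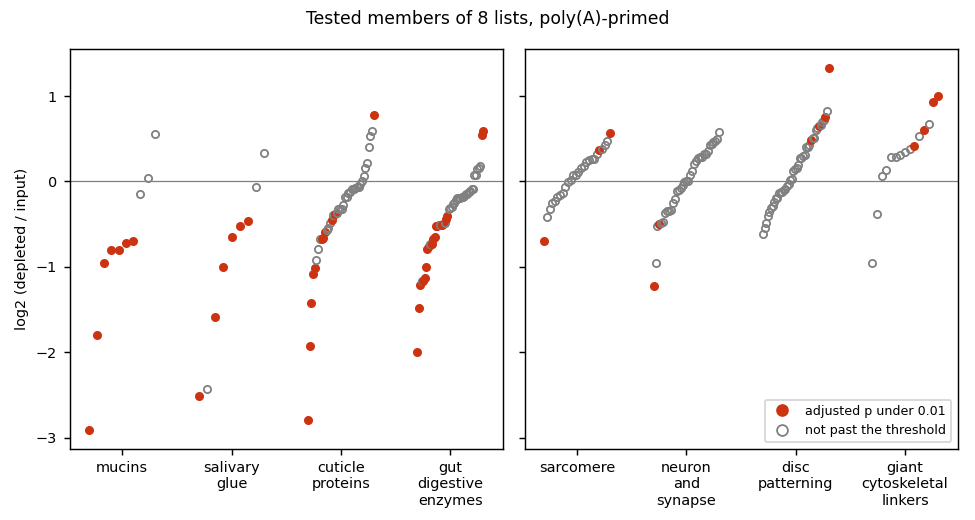
Fitted log2 ratio of depleted to input for every tested member of 8 lists, sorted within each list, with filled points for an adjusted p under 0.01 and open points otherwise. Mucins, glue, cuticle proteins and digestive enzymes reach from -2.92 to 0.78, while the sarcomere list lies between -0.70 and 0.57, and jeb at -1.23 and esg at 1.33 stand apart in the neuron and disc lists.

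Because a few secreted proteins dominate these larvae, the lists were also measured as shares of the analysed counts of a library. Cuticle proteins held 8.02%, 7.29% and 6.56% of the input libraries of pools 1, 2 and 3 and 6.19%, 5.51% and 4.49% of the depleted ones. Digestive enzymes held 5.80%, 7.19% and 4.79% before and 4.86%, 5.33% and 3.44% after. Salivary glue held 9.36%, 8.44% and 11.3% before and 8.22%, 6.80% and 10.9% after. In each pool these shares were lower after depletion, and the groups of glue and of digestive enzymes overlapped. Mucins fell from a mean of 0.190% ± 0.0210 to 0.123% ± 0.0175 (SD, n = 3). The share of sarcomere genes was 0.914% ± 0.200 in the input and 1.18% ± 0.379 after depletion, and that of cytosolic ribosomal proteins was 16.0% ± 0.478 and 16.8% ± 0.414.

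**Figure D4:**
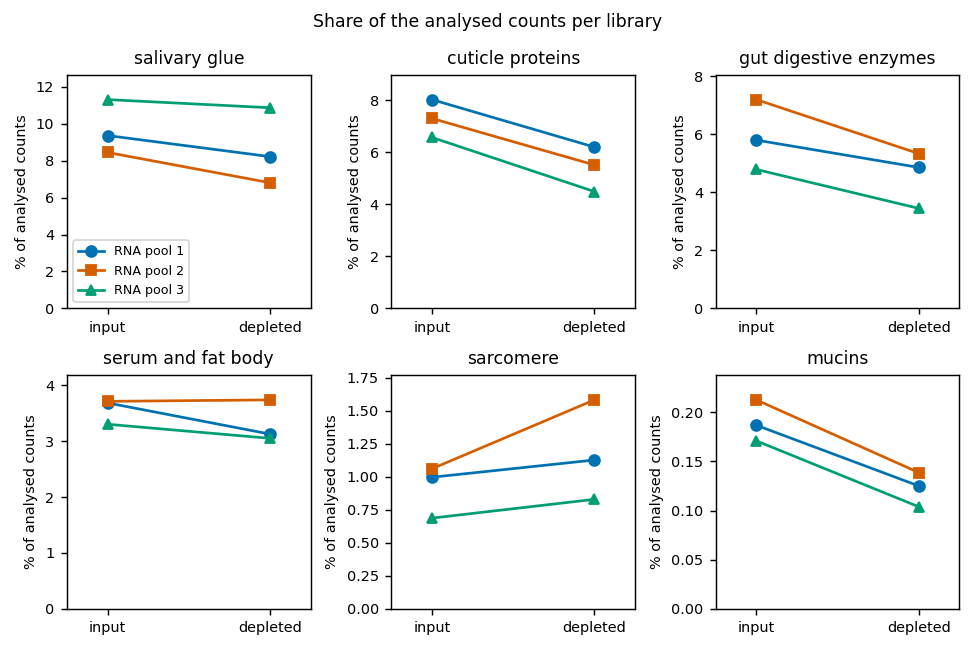
Share of the analysed counts, in percent, held by 6 gene lists in the input and depleted library of each RNA pool, with a line for each pool. Glue, cuticle, digestive enzymes and mucins slope down in all 3 pools, sarcomere genes slope up in all 3, and the serum and fat body list slopes down in pools 1 and 3.

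Fat body and blood genes did not move together. Of 15 serum and fat body genes 3 were lower (20%) and 1 higher (6.67%), against 8.03% and 4.12% of all tested genes. The median of 0.03 became -0.02 with spike-in scaling. Lsp1beta, a storage protein of the larval blood, fell from 12050, 17310 and 11090 CPM to 6412, 7012 and 4672 CPM (log2 fold change -1.15 ± 0.11 SE, adjusted p = 1.24e-12). Lsp1alpha, another subunit of the same protein, had 5071, 6184 and 2930 CPM before and 3910, 3767 and 1827 CPM after depletion (log2 fold change -0.59 ± 0.10 SE, adjusted p = 2.12e-05, and 0.41 without the pool block). The related storage protein Lsp2 was not called, with 6489, 6633 and 6199 CPM before and 6676, 5525 and 5376 CPM after.

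Hemocyte genes divided in the same way. PPO2, the prophenoloxidase of crystal cells, fell from 139, 169 and 76.8 CPM to 55.6, 58.1 and 21.6 CPM (log2 fold change -1.52 ± 0.12 SE, adjusted p = 3.10e-15, and 0.129 without the block), while PPO1, of the same cells, was not called at 0.02. The phagocytosis receptor eater rose from 33.3, 31.4 and 42.6 CPM to 59.8, 51.1 and 55.05 CPM. Among 12 basement membrane genes the laminin chains parted, with LanB2 lower and LanA and LanB1 higher, and SPARC was also lower. Each direction held 16.7% of that list, against 8.03% lower and 4.12% higher among all tested genes.

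Of 10 heme and iron genes 4 were lower (40%, against 8.03% of all tested genes), with a median of -0.38. They were Alas, the ferritin light chain Fer2LCH, the last enzyme of heme synthesis FeCH, and Updo. Fer2LCH fell from 1175, 1193 and 868 CPM to 439, 394 and 341 CPM (log2 fold change -1.46 ± 0.10 SE, adjusted p = 1.60e-16). Its partner, the ferritin heavy chain Fer1HCH, had 1231, 1382 and 1060 CPM before and 1084, 1000 and 926 CPM after and was not called (adjusted p = 0.0445). The secreted imaginal disc growth factors Idgf1, Idgf3 and Idgf4 were lower among 6 tested, by 0.42 to 0.63 on the log2 scale.

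Muscle transcripts showed few calls. Of 26 sarcomere genes tested 2 were higher and 1 lower, 7.69% and 3.85%, against 4.12% and 8.03% of all tested genes, and the median was 0.10. TpnC73F, a calcium-binding troponin C, rose from 388, 352 and 326 CPM to 484, 627 and 477 CPM (log2 fold change 0.57 ± 0.10 SE, adjusted p = 4.41e-05), and Mf, a myofilament protein, rose by 0.37 on the log2 scale. Another troponin C, TpnC47D, was lower at -0.70, with overlapping groups. The most abundant members, Mlc2 (myosin light chain) and Act57B (muscle actin), were not called. Mlc2 had 2086, 2931 and 992 CPM before and 2774, 3356 and 1114 CPM after, higher within each pool by less than the distance between pools. Act57B had 1729, 1662 and 1017 CPM before and 1234, 2703 and 1021 CPM after, with no common direction. Him, which keeps adult muscle progenitors undifferentiated, fell from 2.96, 3.44 and 3.22 CPM to 0.464, 0.463 and 0.380 CPM (log2 fold change -2.77 ± 0.60 SE, adjusted p = 0.000452) and was the only one of 7 progenitor genes called. Its depleted values lay near the floor, so the size of its change is uncertain.

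Neuronal transcripts also gave few calls. Of 35 tested 2 were lower (5.71%) and none higher, against 8.03% and 4.12% of all tested genes. The median of the list, 0.00, became -0.06 with spike-in scaling. By DESeq2 none was called, and by edgeR at an unadjusted p under 0.05 8 were higher. The pair called were jeb, a secreted ligand of the Alk receptor, at -1.23 (adjusted p = 0.00764) and Syx1A, a syntaxin of synaptic vesicle fusion, at -0.50 (adjusted p = 0.00572). Syx1A overlaps another gene on the same strand, and with kallisto estimated counts its log2 fold change was -0.27 with an adjusted p of 0.114. The pan-neuronal RNA-binding protein elav, named after its values were seen, had 10.1, 10.9 and 10.6 CPM before and 16.2, 12.5 and 16.0 CPM after and was not called (adjusted p = 0.104). Of the 2 most abundant members, the synaptic calcium sensor Syt1 had a log2 fold change of 0.33 (adjusted p = 0.0233) and the adhesion molecule Fas2 one of -0.12 (adjusted p = 0.506). Among 8 glial genes, the sugar transporter Tret1-1 rose from 79.7, 72.7 and 96.8 CPM to 104, 123 and 119 CPM (adjusted p = 0.000882).

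No imaginal disc patterning gene was called lower, by edgeR or DESeq2, and 4 were lower at an unadjusted edgeR p under 0.05. Of 42 tested 4 were higher, 9.52% against 4.12% of all tested genes, with a median of 0.15, and the pool medians were -0.06, 0.26 and 0.20. The 4 were sd, the wing selector transcription factor scalloped, Dl, the Notch ligand Delta, rho, the rhomboid protease of epidermal growth factor signalling, and esg, a zinc finger factor of imaginal cells. For sd the libraries held 76.5, 70.2 and 67.4 CPM before and 103, 95.3 and 101 CPM after (log2 fold change 0.48 ± 0.11 SE, adjusted p = 0.000936). For Dl they held 23.2, 14.7 and 19.7 CPM before and 30.4, 33.1 and 32.6 CPM after, and for esg 2.47, 4.97 and 1.29 CPM before and 7.65, 7.403 and 8.35 CPM after. None of these calls passed without the pool block, with DESeq2 with the block or with spike-in scaling. There was 1 call without pool 2 and 1 without pool 3. ImpL2, an ecdysone-inducible gene of disc and epidermal epithelia whose product binds insulin-like peptides, fell from 214, 246 and 207 CPM to 143, 161 and 145 CPM (adjusted p = 3.73e-05), 1 of 5 tested in its list.

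Giant cytoskeletal linkers, large proteins that tie actin, microtubules and membranes together, were higher in 4 of 15 tested and lower in none by edgeR or by DESeq2 with the block, with a median of 0.34. By edgeR 26.7% were thus higher, against 4.12% of all tested genes. The spectraplakin gene shot, with an annotated transcript of 27842 bases, rose from 68.6, 60.2 and 52.6 CPM to 109, 131 and 124 CPM (log2 fold change 1.0 ± 0.12 SE, adjusted p = 1.11e-09). Ank, an ankyrin that anchors membrane proteins to spectrin, rose from 27.6, 20.5 and 29.7 CPM to 35.9, 52.5 and 60.4 CPM, and the filamin gene cher and btsz were also higher. The longest transcript of this list, that of Msp300 in muscle, was not called, with 150, 189 and 138 CPM before and 157, 197 and 147 CPM after. Linkers called higher numbered 1 without pool 2, 2 without pool 3, 7 without pool 1 and 1 with spike-in scaling, and without the block only shot passed. At an unadjusted edgeR p under 0.05 2 were lower.

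Small heat shock genes moved apart. Hsp67Ba, Hsp67Bc and Hsp23 were higher and l(2)efl was lower among 6 tested. These were 50% and 16.7% of the list, against 4.12% and 8.03% of all tested genes. l(2)efl fell from 1792, 2152 and 1738 CPM to 959, 866 and 777 CPM (log2 fold change -1.12 ± 0.11 SE, adjusted p = 2.50e-12). Hsp23, the other abundant member, rose from 1724, 1445 and 2197 CPM to 2273, 1861 and 2840 CPM, by 0.38 on the log2 scale with overlapping groups. The chromatin protein gene HmgZ had 210, 134 and 219 CPM before and 441, 635 and 593 CPM after depletion, a log2 fold change of 1.58 ± 0.29 SE. Its adjusted p was 0.0497 with the pool block and 0.00061 without it. DESeq2 with the block gave 7.80e-05, and edgeR called it in each fit that left out 1 pool, while spike-in scaling gave 0.137. Its neighbour HmgD was not called at 0.27.

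The remaining tissues gave few calls. In the ring gland list of ecdysteroid synthesis, Npc1a was the 1 gene called among 9, and the most abundant dedicated enzyme, sro, was not called at 0.18. No gene was called among 6 of the Malpighian tubule, 18 of the male germline and 2 of early germ cells. DESeq2 called none of them either, and at an unadjusted edgeR p under 0.05 there were 2, 2 and 1. The 2 most abundant of the male germline list, Mst87F and Mst84Da, had log2 fold changes of 0.09 and -0.38, with adjusted p of 0.62 and 0.0141. In oenocytes, which make cuticular hydrocarbons, the cytochrome P450 Cyp4g1 was lower at -0.81 and the fatty acid synthase FASN3 higher at 0.66. Spase12, a signal peptidase subunit used by every secreting cell that had entered this list by its symbol, was lower at -0.67.

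Housekeeping complexes, set beside the tissue lists, were not moved as units either. Of 86 cytosolic ribosomal proteins 20 were lower (23.3%) and 7 higher (8.14%), with a median of -0.11. Of all tested genes 8.03% were lower and 4.12% higher. In the top of 4 equal groups of genes by expression level, 20.9% were lower and 9.37% higher. RpL3 fell from 2448, 3058 and 2105 CPM to 1074, 1082 and 832 CPM (log2 fold change -1.34 ± 0.11 SE, adjusted p = 4.15e-15) and RpS24 from 1752, 1822 and 1701 CPM to 682, 750 and 745 CPM. RpL41, with the highest mean over all 6 libraries, rose from 7199, 6712 and 8851 CPM to 10350, 8430 and 11960 CPM, with overlapping groups. Its adjusted p of 0.00154 became 0.1855 without the pool block. RpL23, the other of the 2 most abundant members, was lower at -0.37 (adjusted p = 0.008, and 0.2226 without the block). In the proteasome 7 of 41 were lower (17.1%) and 1 higher (2.44%). Prosbeta2, a catalytic subunit of the core, fell from 381, 384 and 409 CPM to 142, 124 and 140 CPM (log2 fold change -1.53 ± 0.11 SE, adjusted p = 3.71e-17), while Prosbeta3, of the same ring, was not called, with 471, 456 and 475 CPM before and 472, 388 and 467 CPM after.

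In the respiratory chain 11 of 75 were lower (14.7%) and 4 higher (5.33%), against 8.03% and 4.12% of all tested genes. The ATP synthase subunit gene ATPsynG fell from 287, 309 and 308 CPM to 95.5, 97.2 and 124 CPM, whereas ATPsynC, another subunit of the same enzyme, had 703, 682 and 611 CPM before and 809, 672 and 530 CPM after. Of 12 glycolytic enzymes 2 were lower, Pglym78 and PyK, and 1 was higher, Hex-A. Partners of one complex thus differed by more than 1 on the log2 scale.

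Larval RNA of the same study was also measured in random-primed libraries, which read along the whole transcript and were built from fractions of the same input and depleted RNA. In these libraries 414 of 10893 tested genes were lower after depletion, 3.80%, and 123 were higher, 1.13%, with a median log2 fold change of 0.06. Their input libraries held only 428039 to 596423 analysed counts, which limits what could be called. The random-primed values are kallisto estimated counts, spliced and intronic parts summed. The poly(A)-primed values set beside them are HTSeq counts of uniquely mapping reads, so the measures differ as well as the priming. Mucins had a median of -0.62 there, with 6 of 12 lower, beside -0.76 and 7 of 10 in the poly(A)-primed libraries. Glue had a median of -0.41 with 2 lower and 2 higher. Digestive enzymes had a median of 0.16 with 4 lower and 4 higher, beside -0.31 in the poly(A)-primed libraries, and cuticle proteins 0.01 with 4 lower and 3 higher, beside -0.32. Disc patterning genes lay at -0.09 and giant linkers at -0.15, beside 0.15 and 0.34.

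The difference between the primings was tested as an interaction over all 12 libraries, on estimated counts. Of 11175 genes, 337 had a lower effect in the poly(A)-primed libraries, 3.02%, and 51 a higher one, 0.456%, and the median difference over all genes was -0.16 on the log2 scale. Without the pool block 3 genes were lower and 4 higher in this test, and leaving out 1 pool gave 42 lower without pool 2, 155 without pool 3 and 211 without pool 1. Of 46 digestive enzymes 22 were lower in this test and none higher, with a median difference of -0.63, and of 87 ribosomal proteins 32 were lower, with a median of -0.41. Of the mucins 2 of 12 were lower and 1 was higher. Muc96D and Sgs1 were lost more in the random-primed libraries, where their log2 fold changes were -6.75 ± 0.12 SE and -5.35 ± 0.12 SE. Jon99Cii, Lcp2 and Alas were lost more in the poly(A)-primed ones, with random-primed log2 fold changes of -0.93, -1.03 and -1.03. For RpS24 and ATPsynG the difference was not called, with -1.33 and -1.62 in the random-primed libraries. Among the 120 genes selected for naming, 34 differed between the primings, 30 of them more negative in the poly(A)-primed libraries. Many of the 120 were picked by the size of their change in these same poly(A)-primed libraries. Their count is therefore no measure of how often the primings differ.

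**Figure D5:**
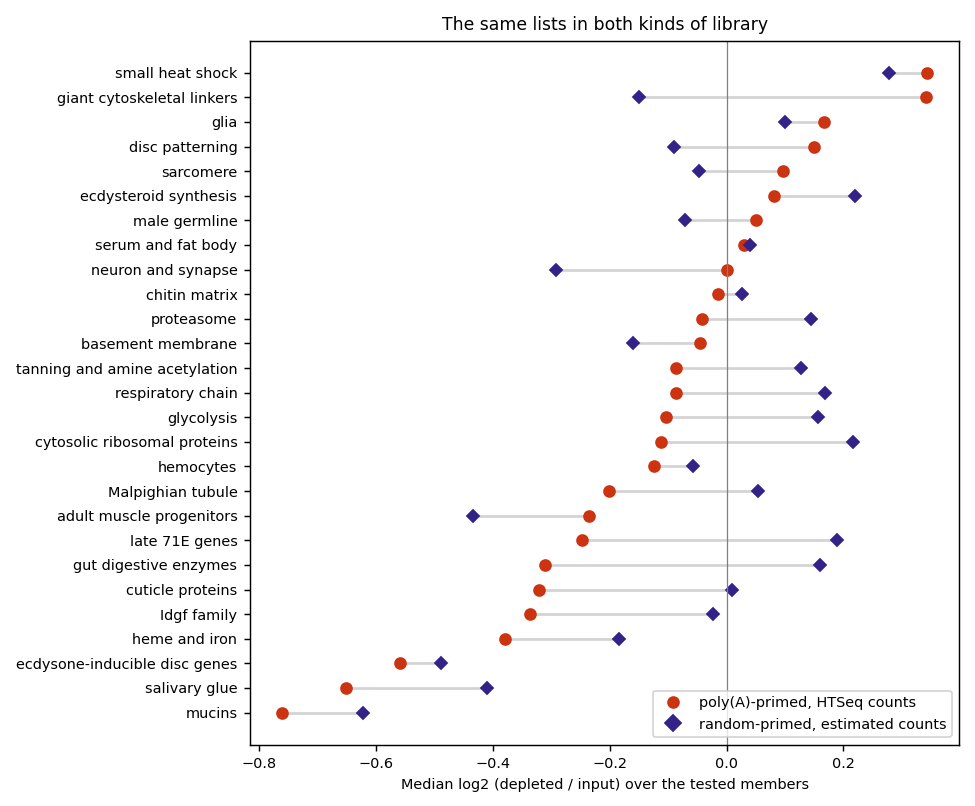
Median log2 ratio of depleted to input for each list in the poly(A)-primed (circles, HTSeq counts) and random-primed (diamonds, estimated counts, spliced plus intronic) libraries of the same RNA pools, for lists with at least 5 tested members in both. Mucins lie at -0.76 and -0.62, digestive enzymes at -0.31 and 0.16, and giant cytoskeletal linkers at 0.34 and -0.15.

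Transcript length, exon number, expression level and naming are given for the called groups as descriptions without a test, and the level comes from the same counts as the calls. The median annotated transcript was 1522 bases for genes called lower, 1851 for genes not called and 2063 for genes called higher. In the shortest of 4 equal groups of genes by transcript length, up to 1102 bases, 10.3% of genes were lower and 4.14% higher, and in the longest group, from 3115 bases, 4.99% were lower and 5.66% higher. Single-exon genes made up 17.7% of those called lower, 11.9% of those called higher and 14.1% of all tested. Calls of both kinds were concentrated among abundant transcripts: in the top of 4 equal groups by level, from 41.8 CPM, 20.9% of genes were lower and 9.37% higher, against 0.883% and 0.504% in the lowest group. Genes known only by a CG or CR number were 39.9% of those called lower, 31.9% of those called higher and 42.7% of all tested. Nearly all genes of each group were protein-coding, 751 of the 764 lower, 380 of the 392 higher and 8138 of the 8358 not called. The parts of transcript length and expression level in the tissue pattern were not tested.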

How the data were processed

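For the poly(A)-primed libraries (QuantSeq 3′ FWD), the authors trimmed reads, aligned them with STAR to Ensembl release 99 (BDGP6.28) and deposited HTSeq counts of uniquely mapping reads per gene, not normalized. For all 12 libraries they also deposited kallisto estimated counts per gene. Here the sum of the spliced and intronic parts was used, rounded to whole numbers. Library preparation started from far less RNA by mass in the depleted group, matched to the input before depletion. A deposited table of the authors' own DESeq2 comparison, with fold changes and p-values, was not used. Summary lines (7.81% to 9.88% of counts), spike-ins and 138 genes with rRNA in their symbol were left out.

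Tests used edgeR 4.0.16 (quasi-likelihood, robust, TMM, default filter) in R 4.3.3 with the RNA pool as a block, and DESeq2 1.42.0 as an alternative. CPM values are relative to TMM-scaled library sizes, SE is the log2 fold change divided by the square root of F, and log2 CPM used a prior count of 2. The RNA pools were separate larval pools. On simulated poly(A)-primed counts with 9327 genes, the blocked fit recovered 93 of 93 genes changed 4-fold and 40 of 98 changed 2-fold, with 4 false calls, and the fit without the block recovered 85 and 3, with 0 false calls. The simulation gave libraries of equal number the same pool effect, a setting that favours the blocked fit. It therefore cannot say which fit suits the measured libraries, whose pairing is not settled. The members and lists were chosen with earlier results of these data known. Genes were named by rule: the 15 largest decreases and increases among called genes of one direction in all 3 pools with a mean of at least 10 CPM, per list up to 2 called members with the largest change and the 2 most abundant, and Act5C. Other genes named were chosen after their values were seen. Lists are described by counts and medians, with no test of the list. Annotation is Ensembl release 115 (BDGP6.54), a later release than the authors', and 10 list entries matched no symbol.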

Additional observations from a re-analysis of the deposited data

Results flagged for a closer look

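Among the genes named here, 34 had depletion effects that differed between the poly(A)-primed and random-primed libraries (edgeR interaction test, adjusted p under 0.01). Many named genes were picked by their change in the same poly(A)-primed libraries, so the test is not independent of that choice. The values below are differences of log2 fold changes, poly(A)-primed minus random-primed, and the median over all genes was -0.164. The effect was more positive in the poly(A)-primed libraries for Muc96D (3.66), Sgs1 (2.75), RNaseMRP:RNA (1.23) and Ank (0.795). Muc96D and Sgs1 were called lower in each kind of library, so their difference is one of size. RNaseMRP:RNA was called higher in the poly(A)-primed and lower in the random-primed libraries (log2 fold changes 1.10 and -0.21), and Jon66Ci (-0.67 and 0.24) and RpL23 (-0.37 and 0.34) were called lower and higher. Without the pool block this test called 3 genes lower and 4 higher among all genes, in place of 337 and 51.

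Among secreted, cuticle and gut proteins the effect was more negative in the poly(A)-primed libraries for Peritrophin-A (-1.75), obst-A (-1.28), Jon25Bii (-1.28), Jon99Cii (-1.23), Lcp2 (-1.03), Jon66Ci (-1.01), Lcp3 (-0.934), Muc26B (-0.884), Sgs8 (-0.663), Sgs7 (-0.66) and Lcp4 (-0.569). The same held for yellow-d2 (-0.777), yellow-e (-0.656) and yellow-c (-0.571) and for the blood proteins PPO2 (-1.12), Lsp1beta (-1.07) and Lsp1alpha (-0.769).

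Enzymes, transporters and housekeeping genes with a more negative effect were Alas (-2.68), Npc1a (-1.82), l(2)efl (-1.43), Spase12 (-1.29), RpL3 (-1.15), RpL23 (-0.838), Rpn3 (-0.83), Fer2LCH (-0.798), Prosbeta2 (-0.73) and Act5C (-0.441). The same held for CG11470 (-1.48), CG7715 (-1.32) and CG3868 (-0.852). What sets these differences was not tested.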

How the results depend on the processing

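Without the replicate block, the poly(A)-primed counts were 145 lower and 12 higher in place of 764 and 392, with 4 cuticle proteins, 2 mucins, 3 glue genes and 5 digestive enzymes lower. Libraries of equal number were taken as one RNA pool, since input and depleted fractions came from the same larval samples, but the labels do not say that the numbers mark those samples. Deviations from the group means correlated at 0.04, 0.30 and 0.54 for equal numbers, against 0.13 for input 1 with depleted 2 and 0.29 for input 2 with depleted 1, so that the pairing of pools 1 and 2 was not settled. Higher calls numbered 48 with spike-in scaling, 103 with DESeq2 with the block and 795 at an adjusted p under 0.05, and lower calls numbered 379 with DESeq2. With spike-in scaling, higher calls were 8.50% of all calls, against 33.9% with TMM, and with DESeq2 21.4%. Leaving out one pool at a time gave 353 to 766 lower and 100 to 531 higher calls, with 3 to 7 glue genes, 10 to 22 digestive enzymes, 6 mucins and 7 to 10 cuticle proteins lower. In the random-primed libraries the counts were 157 lower and 1 higher without the block. Leaving out one pool gave 258 to 305 lower and 28 to 70 higher. For the difference between primings the counts were 3 lower and 4 higher without the block, and leaving out one pool gave 42 to 211 lower and 25 to 54 higher. The cause of these shifts was not tested. None of the 120 named genes reversed its direction in a called result under any alternative, and 51 lost their call without the block.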
